A study of Mus musculus with 18 samples.

Results

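Mouse embryonic stem cells collected 4 h after 10 Gy of X-rays (ESRL) were compared to the same kind of cells left unirradiated (ES), over all genes on the array. The comparison used 3 ESRL and 3 ES arrays, 6 of the 18 arrays in the series, chosen by their labels and not by any measured value. The study set embryonic stem cells beside cells differentiated from them, each group as 3 arrays with no pooling of samples, and profiled RNA with a single-colour Agilent array that carries probes for mRNAs and for long noncoding RNAs. ES and ESRL cells were wild-type early-passage stem cells from blastocysts, kept undifferentiated with leukemia inhibitory factor. Stem cells taken 15 min after 10 Gy (ESRE) were used as a second reference, and differentiated cells without irradiation (ED) and 4 h after 10 Gy (EDRL) were used to ask whether the 4 h change differed with differentiation. The differentiated cells came from wild-type stem cells by withdrawal of leukemia inhibitory factor, with no directed lineage. No group carried an engineered allele or a drug. The labels do not say whether the 3 arrays of a group came from separate cultures, so p-values measured only the spread between these samples, which may be technical.

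Ionizing radiation breaks both DNA strands, and the kinases that sense the breaks stabilise p53, a transcription factor. p53 then activates genes for cell cycle arrest, DNA repair and apoptosis, together with Mdm2, the ubiquitin ligase that returns p53 to its low resting level. Embryonic stem cells are known for a short G1 phase and for weak arrest at the G1 checkpoint after DNA damage, and many of them die or differentiate instead.

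The identity of the cells was checked first. All 8 stem cell markers, Pou5f1, Sox2, Nanog, Zfp42, Esrrb, Dppa5a, Fut4 and Utf1, were above background on every ES and ESRL array. Their summed signal, in multiples of the 75th percentile of each array, was 555 to 562 in ES, 510 to 549 in ESRL and 5.03 to 5.82 in ED. The 23 mesenchymal genes on the array summed to 144 to 173 in ES, 155 to 168 in ESRL and 776 to 913 in ED, and the 13 immune and endothelial genes to 3.16 to 3.28 in ES and 2.63 to 3.02 in ESRL. The label of stem cells was borne out by these markers in both groups. In bulk RNA, fewer cells of a type and less RNA per cell cannot be told apart.

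The arrays themselves differed between the groups. The 3 ES arrays were scanned at a time of their own, ESRL replicates 2 and 3 were scanned together with ESRE replicates 1 and 2, and ESRL replicate 1 was scanned alone. No scan time held both ES and ESRL arrays, so scan time and irradiation cannot be told apart in ESRL against ES. For this reason many, though not all, of the changes below are accompanied by the difference between the ESRL and the ESRE arrays that shared a scan time. That difference has 2 arrays a side and compares 4 h to 15 min, not to unirradiated cells. Its 2 ESRL arrays are among the 3 behind the calls, so for called genes agreement in direction is partly built in. Replicate 1 of ESRL was also the dimmest of these arrays. Its 75th percentile was 1952 against 2914 to 3529 on the other ES and ESRL arrays, and 63.3% of its spots were above background against 78.0% to 86.1%.

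Levels are given as log2 of the signal over the 75th percentile of the same array, and changes as differences of their means. A gene was called when one of its probes had a limma adjusted p under 0.05 and a change of more than 2-fold. Of 25599 genes tested, 177 (0.691%) were called higher and 1766 (6.90%) lower in ESRL. Set to the array median instead, 551 were called higher and 1032 lower, because that scaling moved the median change of all probes from -0.16 to 0.15. With scan time as a random block only 3 were called higher and 46 lower. The groups did not overlap on 191 of the 193 probes called higher and 1717 of the 1772 called lower. Lack of overlap therefore adds little to a call.

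Several genes that p53 activates were higher at 4 h, and none of those tested was called lower. On the list of p53 targets in cell cycle arrest and feedback, 27 of 31 genes could be tested, and 4 were called higher and 0 lower against the 0.691% called higher over all genes. On the list of p53 targets in apoptosis, 15 of 17 could be tested, and 1 was called higher and 0 lower. The median change was 0.40 on the first list, with 18 of 27 members above 0, and 0.29 on the second, with 11 of 15 above 0. Over all 25599 genes the median was -0.18, with 9566 above 0. Under the other scalings the medians ran from 0.22 to 0.71 on the first list, from 0.17 to 0.60 on the second and from -0.05 to 0.13 over all genes.

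**Figure D1:**
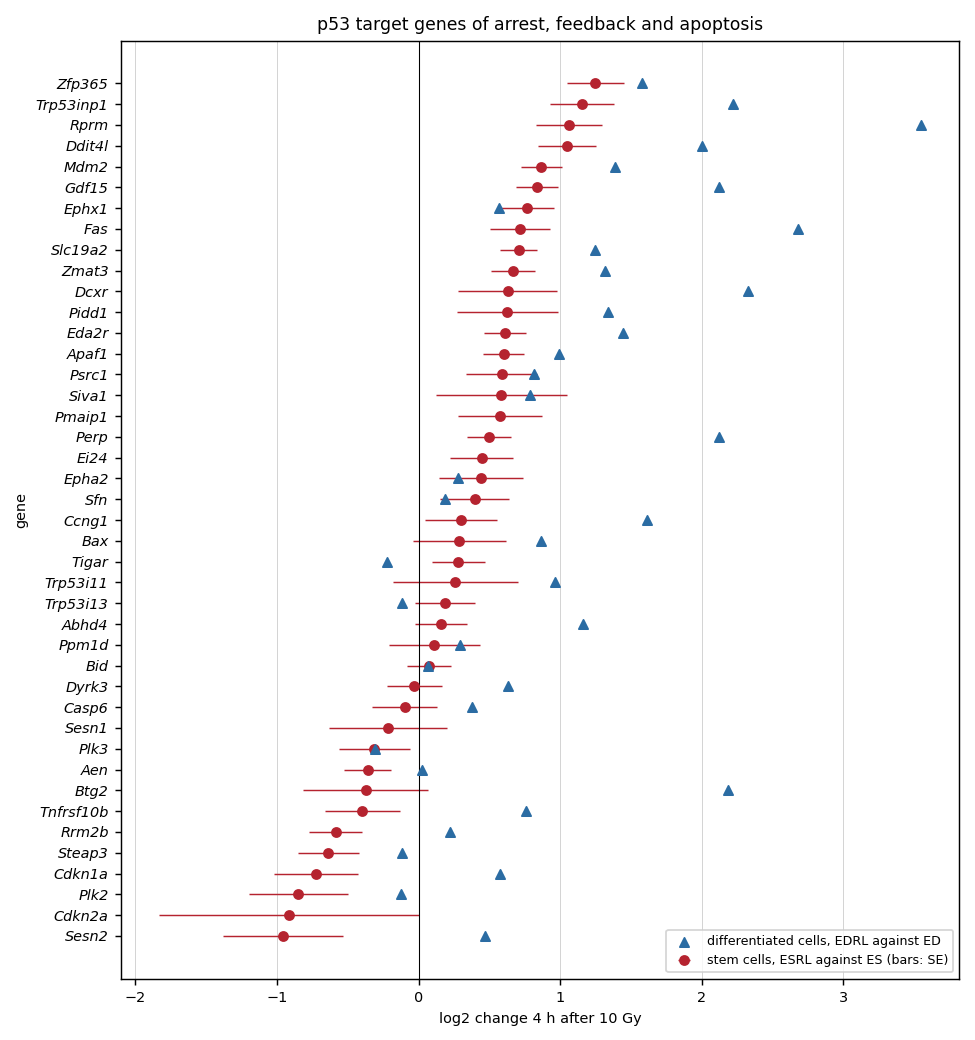
Change of each tested p53 target at 4 h on the log2 scale, with stem cells (ESRL minus ES) as circles with standard error bars and differentiated cells (EDRL minus ED) as triangles, genes in the order of the stem cell change and 1 probe, the brightest, per gene. Zfp365, Trp53inp1, Rprm and Ddit4l lie above 1 in stem cells, Cdkn1a lies below 0, and Rprm is at 1.06 in stem and 3.55 in differentiated cells.

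Zfp365, a zinc finger gene with a role in genome stability, was measured at 1.44 and 1.47 on 2 ES arrays and at 2.55 and 2.86 on 2 ESRL arrays, the other 2 spots being outliers that were dropped. The ESRL levels lay more than 1 unit above the ES levels, a change of 1.25 ± 0.20 (SE, adjusted p = 0.0087), with 1.08 at the shared scan time. Rprm, which encodes reprimo, a mediator of G2 arrest, was at -0.71, -0.86 and -0.86 in ES and at 0.63, 0.01 and 0.12 in ESRL. The groups did not overlap, and the change was 1.06 ± 0.23 (adjusted p = 0.0124), with -0.05 at 15 min and 0.84 at the shared scan time. Ddit4l, an inhibitor of mTORC1 signalling, was at -0.05, 0.08 and -0.02 in ES and at 1.44, 0.80 and 0.91 in ESRL. It rose by 1.05 ± 0.21 (adjusted p = 0.0082) with no overlap, differed from ES by 0.01 at 15 min and was 0.98 higher at the shared scan time, where it was called as well (adjusted p = 0.0374).

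Fas, the death receptor, had 2 probes. On one, ES arrays were at -3.78, -4.64 and -4.52 and ESRL arrays at -3.03, -3.20 and -3.47, so all ESRL values were above all ES values and the change was 1.08 ± 0.21 (adjusted p = 0.0073). The brighter probe gave 0.71 and did not pass (adjusted p = 0.0552), while both gave near 1 at the shared scan time, 0.94 and 0.98. Trp53inp1, a stress-induced partner of p53, rose by 1.15 ± 0.23 (adjusted p = 0.0080), of which 0.80 was present at 15 min and 0.55 separated ESRL from ESRE at the shared scan time. The called probes of Fas and Trp53inp1 lay in the upper left area of the array, described further on. In a limma fit of only the probes outside it, Zfp365, Rprm and Ddit4l did not pass (adjusted p = 0.0624, 0.0741 and 0.0559). With scan time as a random block the called p53 targets had adjusted p from 0.4256 (Ddit4l) to 0.6834 (Fas).

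Other targets passed the test with changes below 2-fold, and all of them were higher. Mdm2 was at 4.32, 4.56 and 4.37 in ES and at 5.49, 5.15 and 5.21 in ESRL. The change of 0.87 ± 0.14 (adjusted p = 0.0039) was as large at the shared scan time, 0.92 (adjusted p = 0.0176), and was -0.18 at 15 min. Gdf15, a secreted stress cytokine, changed by 0.84 (adjusted p = 0.0039), Ephx1, an epoxide hydrolase, by 0.77 (adjusted p = 0.0307), and Slc19a2, a thiamine transporter, by 0.71 (adjusted p = 0.0068). Zmat3, an RNA-binding target of p53, changed by 0.67 (adjusted p = 0.0228). Among the apoptosis genes, Eda2r, a death receptor of the TNF family, changed by 0.61 (adjusted p = 0.0252) and Apaf1, the core of the apoptosome, by 0.60 (adjusted p = 0.0237). For Gdf15, Ephx1, Slc19a2, Zmat3, Eda2r and Apaf1 the differences at the shared scan time were 0.46, 0.96, 0.49, 0.38, 0.48 and 0.47. Their 15 min changes were 0.44, -0.37, 0.28, 0.30, 0.23 and 0.01. The probes of Mdm2, Gdf15, Ephx1, Slc19a2 and Zmat3 lay in the upper left area, those of Eda2r and Apaf1 outside it.

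Other classical targets did not pass. Cdkn1a, the p21 inhibitor of cyclin-dependent kinases, was at -1.84, -1.97 and -2.04 in ES and at -3.26, -1.94 and -3.11 in ESRL. ESRL replicate 2 lay among the ES arrays and the other 2 ESRL arrays lay below them. The change was -0.82 on this probe (adjusted p = 0.1056) and -0.73 on the second (adjusted p = 0.15), against -0.07 and -0.13 at the shared scan time. Ccng1, a cyclin that p53 activates, was level in ES at 4.20, 4.26 and 4.21 and spread from 3.98 to 5.16 in ESRL, so its 0.30 was within the spread (adjusted p = 0.5188), although ESRL lay 0.99 above ESRE at the shared scan time (adjusted p = 0.0948). The differences were 0.29 for Bax, 0.57 for Pmaip1, which encodes Noxa, -0.37 for Btg2, an antiproliferative gene, and -0.96 for Sesn2, a stress sestrin, and none of them passed. Both probes of Cdkn1a and that of Ccng1 lay in the upper left area, those of Bax, Pmaip1, Btg2 and Sesn2 outside it. Bbc3, which encodes Puma, was too close to background to test. The spots of Phlda3, an inhibitor of Akt, were flagged as outliers on most arrays, and with them kept its change was 0.60 (adjusted p = 0.38).

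The promoters of p53 list members were searched for the p53 response element, because several of these genes rose. The element is made of 2 repeats of 10 bases with no spacer, and up to 2 mismatches to the consensus were allowed outside the fixed C and G of each repeat. Of 32851 RefSeq promoters of 300 bases (250 before and 50 after the annotated start), 107 (0.326%) held a match, as did 4 of 59 promoters of genes on the p53 lists and 2 of 99 promoters of genes called higher. The matches lay in Trp73 and Zfp365, which rose, and in Cdkn1a and Ccng1, which did not pass the test. Each is printed 5′ to 3′ on the strand of its gene, from RefSeq on GRCm38.p6, with the matched element in capitals. The windows are Trp73 at chr4:154097170-154097289 on the minus strand (2 mismatches), Zfp365 at chr10:67912656-67912775 on the minus strand (2 mismatches), Cdkn1a at chr17:29090878-29090997 on the plus strand (1 mismatch) and Ccng1 at chr11:40755412-40755531 on the minus strand (1 mismatch).
Trp73: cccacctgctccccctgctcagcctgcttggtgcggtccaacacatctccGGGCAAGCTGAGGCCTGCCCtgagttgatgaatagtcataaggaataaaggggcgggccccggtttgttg
Zfp365: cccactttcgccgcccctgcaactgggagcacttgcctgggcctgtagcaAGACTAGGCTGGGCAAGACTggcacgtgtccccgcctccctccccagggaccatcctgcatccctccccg
Cdkn1a: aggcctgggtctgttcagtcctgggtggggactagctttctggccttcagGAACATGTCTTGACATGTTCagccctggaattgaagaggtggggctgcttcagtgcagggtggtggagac
Ccng1: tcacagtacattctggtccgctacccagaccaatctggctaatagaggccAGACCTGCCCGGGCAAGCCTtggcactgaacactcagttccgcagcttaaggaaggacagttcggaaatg
A match describes these letters and not binding, and a promoter without one says nothing about p53 at sites outside the window.

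Trp73 and Tnfrsf18 were called in all 18 fits that left out 1 array, on at least 1 probe each. Trp73, a member of the p53 family, had 3 probes, whose differences were 2.12 ± 0.27 (adjusted p = 0.000495), 1.96 ± 0.29 (adjusted p = 0.0014) and 1.60 ± 0.50 (adjusted p = 0.0629). On the first, ES arrays were at -1.54, -1.47 and -1.51 and ESRL arrays at 0.27, 0.55 and 1.02. ESRL lay 2.11 above ESRE at the shared scan time (adjusted p = 0.0078), and the 15 min change was 0.24. Tnfrsf18, which encodes the TNF receptor family member GITR, changed by 2.46 and 2.39 on its 2 probes, from faint levels of -7.08 to -6.44 in ES to -4.67 to -3.86 in ESRL. Both genes lay outside the array area described further on. With scan time as a random block the adjusted p was 0.1952 for the best probe of Trp73 and 0.1029 for that of Tnfrsf18.

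P2rx6, a subunit of ATP-gated ion channels, behaved alike on its 2 probes, with 1.84 ± 0.39 (adjusted p = 0.0102) and 1.64 ± 0.40 (adjusted p = 0.0225). The first was at -5.70, -5.58 and -5.68 in ES and at -3.15, -4.59 and -3.73 in ESRL, so the groups stood apart while the 3 ESRL arrays differed among themselves. Its 15 min change was -0.52 and ESRL lay 1.97 above ESRE at the shared scan time. Matn1, the cartilage matrix protein matrilin 1, was at -3.25, -2.98 and -3.24 in ES and at -1.28, -1.46 and -0.91 in ESRL. It rose by 1.94 ± 0.38 (adjusted p = 0.0073), with 0.05 at 15 min and 1.87 at the shared scan time. Nkx2-9, a homeobox gene, was at -2.88, -2.59 and -2.62 in ES and at -0.43, -0.90 and -0.80 in ESRL. Its groups did not overlap, the rise was 1.99 ± 0.29 (adjusted p = 0.0012) and the difference at the shared scan time was 1.57 (adjusted p = 0.0616). The transcript NM_153522 rose by 1.81 ± 0.26 (adjusted p = 0.0010), with -0.10 at 15 min and 1.77 at the shared scan time (adjusted p = 0.0169).

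Of the 12 largest rises of mRNAs above background on all 6 arrays, taken as 1 probe per gene, 8 had the same direction at the shared scan time. Of those 8 probes 2, of Trp73 and NM_153522, were called there. The probe of Tnfrsf18 in this set lay 2.36 higher there (limma adjusted p = 0.2487), while its other probe was called (2.25, adjusted p = 0.0169). In the upper left area of the array, described further on, lay 6 of the 12, namely Nkx2-9, NM_153522, Art4, Znrf4, AW551984 and NM_001111280. Besides the genes above, these rises held Art4, an ADP-ribosyltransferase (1.82), Tas1r1, a taste receptor (1.79), Znrf4, a RING finger gene (2.10), S100a13, a calcium-binding protein measured on 1 array a side (1.94, and 0.57 with adjusted p = 0.6292 when outlier spots were kept), and the transcripts AW551984 (1.75) and NM_001111280 (1.74). Art4 and Tas1r1 lay 1.59 and 1.47 above ESRE at the shared scan time, whereas Znrf4 and AW551984 lay at -0.12 and -0.84. In the comparison at the shared scan time as a whole, 75 of 24931 genes (0.301%) were called higher and 246 (0.987%) lower. Among the noncoding or unannotated transcripts AK077083 (1.89), AK013865 (1.83) and uc008gqn (1.75) rose most.

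**Figure D2:**
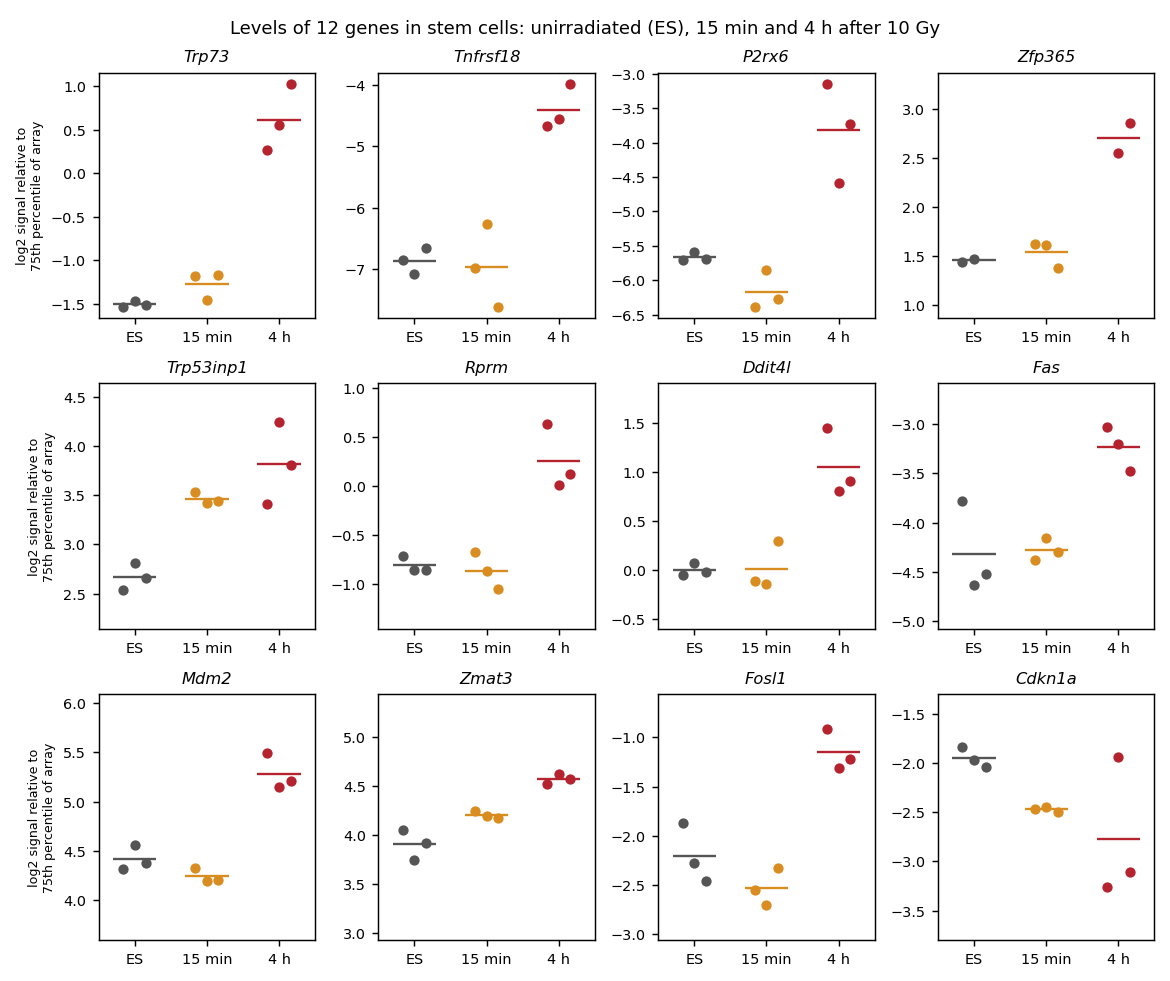
Level of 12 genes on each stem cell array, log2 of signal over the 75th percentile of the array, for ES, 15 min (ESRE) and 4 h (ESRL), with lines at group means and a y scale that differs between panels. In every gene shown but Cdkn1a the 4 h points lie above all ES points.

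Fosl1, an AP-1 subunit, was the only immediate early gene called of 17 tested, against 0.691% called higher over all genes. It was at -1.87, -2.28 and -2.46 in ES and at -0.91, -1.31 and -1.22 in ESRL, without overlap. The rise was 1.06 ± 0.20 (adjusted p = 0.0080), the 15 min change -0.32, and the difference at the shared scan time 1.37 (adjusted p = 0.0193). Its probe lay in the upper left area, and with scan time as a random block the limma adjusted p was 0.5378. The list had a median of -0.26.

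A second kind of rise was already present at 15 min. Over the 193 probes called higher at 4 h the median change was 1.28 at 4 h and 0.47 at 15 min, with 0.62 at the shared scan time. Rnaseh2c, a subunit of ribonuclease H2, which removes ribonucleotides from DNA, was at 1.67, 1.50 and 1.75 in ES and at 3.03, 2.75 and 3.37 in ESRL. It rose by 1.41 ± 0.19 (adjusted p = 0.0012) with no overlap, but by 1.54 at 15 min, so ESRL and ESRE did not separate at the shared scan time (-0.08). Dna2, a nuclease and helicase of replication and end resection, rose by 1.03 ± 0.22 (adjusted p = 0.0142) after 1.33 at 15 min. The ribosomal protein gene Rpl12 changed by 1.64 (adjusted p = 0.0108) after 2.08 at 15 min, and one probe of Dclre1c, the end-joining nuclease Artemis, by 1.58 after 2.01, while the other 2 probes of Dclre1c gave -0.09 and 0.22.

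ESRL replicate 1, alone at its scan time, was the ESRL array nearest to ES for several of these transcripts, with 5.77 for Rpl12 against 6.93 and 6.84 on the other ESRL arrays, and -1.31 for Dclre1c against 0.05 and 0.56. Ppp2ca, the catalytic subunit of protein phosphatase 2A, showed the same order, 2.27 against 3.50 and 3.39, and did not pass (0.76, limma adjusted p = 0.1565). Without that array its change was 1.15 (adjusted p = 0.0068), and without ESRL replicate 2 it was 0.54 (adjusted p = 0.2633). It was called in 1 of the 18 fits that left out 1 array. Its change was 1.32 at 15 min and -0.23 at the shared scan time, and its probe lay in the upper left area. Every ES array was scanned apart from every irradiated array, so the part of scan time in these early rises was not tested. A pair of broad lists had the same shape. Ribosomal protein genes had a median of 0.27 at 4 h, with 70 of 75 above 0, 0.29 at 15 min and -0.06 at the shared scan time. Genes of oxidative phosphorylation had 0.31, with 34 of 36 above 0, then 0.18 and -0.08, and 1 and 0 members of these lists were called. Under the other scalings these 4 h medians ran from 0.10 to 0.58 and from 0.13 to 0.62.

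**Figure D3:**
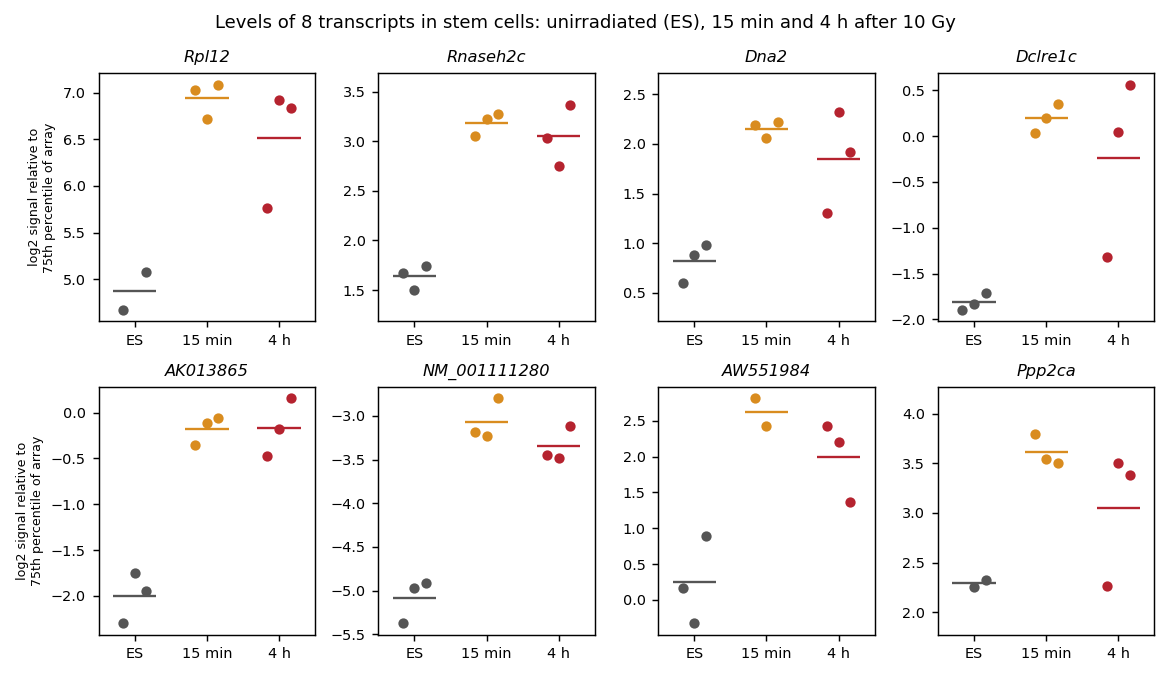
Level of 8 transcripts on each stem cell array, log2 of signal over the 75th percentile of the array, for ES, 15 min (ESRE) and 4 h (ESRL), with lines at group means and a y scale that differs between panels. The 15 min points lie above all ES points, and for Rpl12, Dna2, Dclre1c and Ppp2ca the leftmost 4 h point, replicate 1, is the lowest of the 4 h points.

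Lower transcripts outnumbered higher ones but were concentrated in 1 area of the array. Spots were divided after the data were seen into an upper left area (the first 3 of 5 bands of rows and the first 3 of 5 bands of columns), an upper right area and a lower area. The upper left area held 10474 of 27966 tested probes (37.5%) and 1435 of the 1772 probes called lower (81.0%). In it 13.7% of probes were called lower, against 3.25% in the upper right and 1.07% in the lower area. The faint probes carried this. With probes ranked by their mean ES signal into 4 equal classes, 28.5% of the faintest class were called lower in the upper left area and 1.33% in the lower area, and in the brightest class 0.664% and 0.183%.

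The faint spots of that area were dimmer than those of the other areas on ESRL replicate 2. On this array, which had 98.5% and 98.8% of the tested probes above background in the other areas, 87.9% were above background in the upper left area, and the 10th percentile of signal in the faintest class was 5.10 there against 22.5 and 25.4. On ES replicate 1 the same percentiles, in the upper left, upper right and lower areas, were 27.1, 27.9 and 29.3. They were 6.02, 5.77 and 6.52 on ESRL replicate 1, which was about equally dim in all 3 areas, and 10.8, 5.75 and 17.1 on ESRL replicate 3, which was dimmest in the upper right. Only 473 of the 1772 probes called lower were above background on all 6 arrays, and 321 were above background on no ESRL array. The same area held 105 of the 193 probes called higher (54.4%). Outside it, the main fit called 58 probes higher and 223 lower in the upper right area, and 30 higher and 114 lower in the lower area. When the test and its p-value adjustment were run anew on only the probes outside it, 28 genes of 16482 were called higher (0.170%) and 19 lower (0.115%). These smaller counts therefore reflect the new adjustment as well as the position of the probes.

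**Figure D4:**
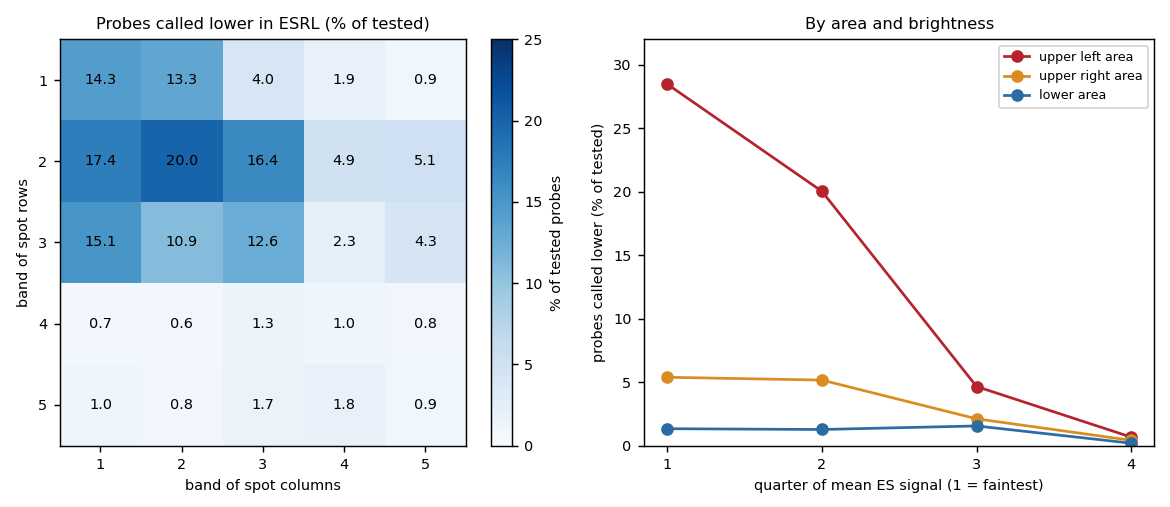
Left, share of tested probes called lower in ESRL against ES, in percent, by 5 bands of spot rows and 5 bands of spot columns of the array. Right, the same share by area and by class of mean ES signal, from 28.5% of the faintest class in the upper left area to 0.183% of the brightest class in the lower area.

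The 12 largest falls of mRNAs above background on all 6 arrays are given with their position for that reason, since 9 of them lay in the upper left area. B4galt1, a galactosyltransferase of glycoprotein synthesis, was at -0.59, -0.78 and -0.86 in ES and at -4.35 and -5.86 on 2 ESRL arrays, the third spot being an outlier. The change of -4.36 ± 0.39 (adjusted p = 0.000116) was the largest of the named genes and passed with scan time as a random block (adjusted p = 0.0179). With the outlier spot kept it was -2.98 and did not pass (adjusted p = 0.0649), and its probe lay in that area. Hoxc10, a posterior homeobox gene in the same area, was at -0.92, -0.76 and -0.83 in ES and at -4.07, -3.45 and -3.66 in ESRL. It fell by 2.89 with no overlap. Among the 15 min arrays ESRE replicate 1 was at -3.57 and the other 2 at -0.89 and -0.95, near the ES level, so this 1 array carried the 15 min difference of -0.97 and drew the difference at the shared scan time to -1.32. Outside the area lay Ferd3l, a basic helix-loop-helix factor, at -1.44, -1.41 and -1.51 in ES and -4.70, -2.97 and -4.77 in ESRL. It fell by 2.69 (SE 0.35, adjusted p = 0.000579) and was -2.43 at the shared scan time (adjusted p = 0.0151).

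Gm14305, a predicted gene, and Rhox11, a reproductive homeobox gene, were the other falls outside the area, with -3.28 and -2.53. Rhox11 was measured on 1 array a side and Gm14305 on 2 ESRL arrays, and with outlier spots kept neither passed, at -0.81 (adjusted p = 0.3354) and -1.89 (adjusted p = 0.2132). The rest were Gm14393 (-3.54, and -2.08 with adjusted p = 0.1348 when outlier spots were kept), Ugt3a1, a glycosyltransferase (-2.89), Milr1, an immunoglobulin-like receptor of mast cells (-2.70), the olfactory receptor Olfr1257 (-2.67), Ms4a4c, a membrane-spanning protein (-2.67), one of 2 probes of the amino acid transporter gene Slc7a15 (-2.53, the other 0.21) and Actrt2, an actin-related protein of testis (-2.49). ESRL replicate 2 carried much of the falls of Milr1 and Ms4a4c, whose changes without it were -1.59 and -1.25. Ms4a4c was at -0.89, -4.78 and -0.19 in ESRL and was called in 4 of the 18 fits that left out 1 array. Of the noncoding transcripts uc.174+ (-4.06, from 1 ES array), AK154344 (-3.31, and -2.08 with adjusted p = 0.0952 when outlier spots were kept) and AK080539 (-3.02) fell most.

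Among genes outside the area, named here after their values were seen, the rises held Lhfpl1 (1.72), the sodium channel subunit gene Scn3b (1.68), the complement gene C4b (1.68), the carboxypeptidase gene Cpb1 (1.61) and the growth factor gene Gdf5 (1.58). Foxj1, a regulator of motile cilia, was at -1.44, -1.52 and -1.57 in ES and at 0.37, -0.38 and 0.11 in ESRL. It changed by 1.54 with 0.02 at 15 min and 1.27 at the shared scan time. Ttll6, a tubulin polyglutamylase of cilia, was at -1.57, -2.01 and -1.83 in ES and at -0.31, -0.61 and -0.21 in ESRL. It changed by 1.43, with 0.18 at 15 min and 1.26 at the shared scan time. As for nearly all called probes, neither gene overlapped between the groups. The noncoding transcript uc008cdl had the tightest arrays of these rises, at -4.21, -4.25 and -4.23 in ES and at -2.74, -2.70 and -2.61 in ESRL, a change of 1.54 ± 0.12 (adjusted p = 0.0001 among probes outside the area). Chl1, a neural cell adhesion gene (1.32), Rtkn (1.19), Slc4a11, a membrane transporter (1.35), and Kbtbd11 (1.37) were also higher, with 1.59, 1.02, 0.89 and 1.07 at the shared scan time. Sp3, a transcription factor (1.27), Rapgef1, a guanine nucleotide exchange factor (1.40), and Vps28, an endosomal sorting subunit (1.08), were higher by 2.03, 2.10 and 1.08 at 15 min already. Of the 29 probes of these 28 genes, 19 were more than 0.5 higher at the shared scan time. The falls outside the area held Sdf2l1, an endoplasmic reticulum protein (-1.72, from 1 ESRL array), the interferon-inducible Ifi204 (-1.26) and Sptlc2, of sphingolipid synthesis (-1.22). Of the 14 measured there, 10 were more than 0.5 lower at the shared scan time. This count and that of the rises are partly built in, since ESRL replicates 2 and 3 also entered the calls.

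No core pluripotency gene passed the test. Pou5f1, which encodes Oct4, was at 6.80, 6.64 and 6.63 in ES and at 7.03, 7.08 and 6.92 in ESRL, a difference of 0.31 (adjusted p = 0.5406) with -0.18 at the shared scan time. The differences were -0.30 for Sox2, -0.50 for Klf4 and -0.13 and 0.11 for the 2 probes of Esrrb, and none passed. On the whole list 0 of 30 tested genes were called, with a median of -0.12. Nanog could not be tested because 5 of its 6 spots were flagged as non-uniform. With those spots kept its level was 1.82, 2.13 and 1.88 in ES, 1.11, 1.00 and 0.84 in ESRE and 0.27, 0.55 and -0.19 in ESRL, so each time point lay below the one before without overlap. The change at 4 h was then -1.73 (adjusted p = 9.67e-04), on spots that did not meet the quality filter. In ED the level of Nanog was about -7.

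Called lower were 3 of 37 lineage genes, near the 6.90% of all genes called lower, namely Hand2 (-1.73), Sox17 (-1.18) and Gata4 (-1.07), regulators of heart and endoderm, with a list median of -0.30. The probes of all 3 lay in the upper left area, which held 81.0% of the probes called lower. Of 20 mesenchymal genes 2 were called lower, a count that differs little from the same background, Pdgfra, the PDGF receptor alpha (-1.40), and Prrx1, a homeobox gene (-1.09), with a list median of -0.27 at 4 h and 0.17 at the shared scan time, where Pdgfra was at -0.09. The probe of Prrx1 lay in the upper left area, this probe of Pdgfra outside it. The 11 immune and endothelial genes tested had a list median of -0.72 at 4 h and 0.08 at the shared scan time. The 15 genes of the 2-cell state had 0 calls and a median of -0.01. The median of all genes was -0.18. Under the other scalings the medians ran from -0.28 to 0.19 for pluripotency, from -0.23 to 0.03 for lineage genes and from -0.35 to 0.09 for mesenchymal genes, so their sign depended on the scaling, whereas immune and endothelial genes ran from -0.42 to -0.12.

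The calls among genes of division and repair are to be read against the 0.691% of all genes called higher and the 6.90% called lower. In mitosis 0 of 53 genes were called, with a median of -0.08, and Ccnb1 (0.34), Plk1 (-0.33) and Cdk1 (-0.57), drivers of mitotic entry, did not pass. Cyclins and their kinases had 0 of 26 called and a median of -0.05. In replication 2 of 37 were called higher, Rnaseh2c and Dna2, with a median of 0.09. Damage kinases and their adaptors had 1 of 21 called, Abraxas1, a BRCA1 complex scaffold (-1.33), and recombination had 1 of 31, Fancc, of the Fanconi core complex (-1.78, with 0.34 on its second probe). Both called probes were above background on 1 of 3 ESRL arrays and lay in the upper left area. End joining and excision repair had 1 of 36, Dclre1c, with a median of 0.16. Below the 2-fold limit, the translesion polymerase gene Rev1 changed by 0.63 (adjusted p = 0.0175), with 0.08 at 15 min and 0.64 at the shared scan time.

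In the p53 family and its cofactors, 16 tested, Trp73 was called higher and Mdm4, the p53 inhibitor, lower at -2.51. Mdm4 was above background on 1 of 3 ESRL arrays, its groups overlapped and its probe lay in the upper left area. The 2 probes of Trp53 itself gave -1.05 and -0.75 and did not pass. The TNF family had 2 higher, Tnfrsf18 and Fas, and 1 lower of 35, the lower one being the decoy receptor gene Tnfrsf26 (-1.31, and -0.87 without ESRL replicate 1). The probe of Tnfrsf26 lay in the upper left area as well. In the Bcl-2 and caspase list, Dffb, the caspase-activated nuclease (1.74, on 1 array a side), was called higher and Diablo, an antagonist of apoptosis inhibitors (-1.68, -0.25 at the shared scan time and -1.09 without ESRL replicate 1), lower, of 34 tested with a median of 0.00. Of 24 genes of protein phosphatase 2A and its regulators, Strn, a striatin subunit, was called lower (-1.45, -0.38 at the shared scan time and -0.88 without ESRL replicate 1), and Ppp2cb was at 0.03.

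No gene was called on the lists of interferon and NF-kB targets (31 tested, median -0.25), heat shock and stress (27, 0.03), the proteasome (34, 0.16), RNA processing (42, -0.01) or sterol synthesis and glycolysis (29, 0.01). On 21 genes not expected in these cells, summed signal was 0.812 to 0.844 in ES and 0.826 to 1.12 in ESRL, and 1 of 16 tested, Tas1r1, was called.

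**Figure D5:**
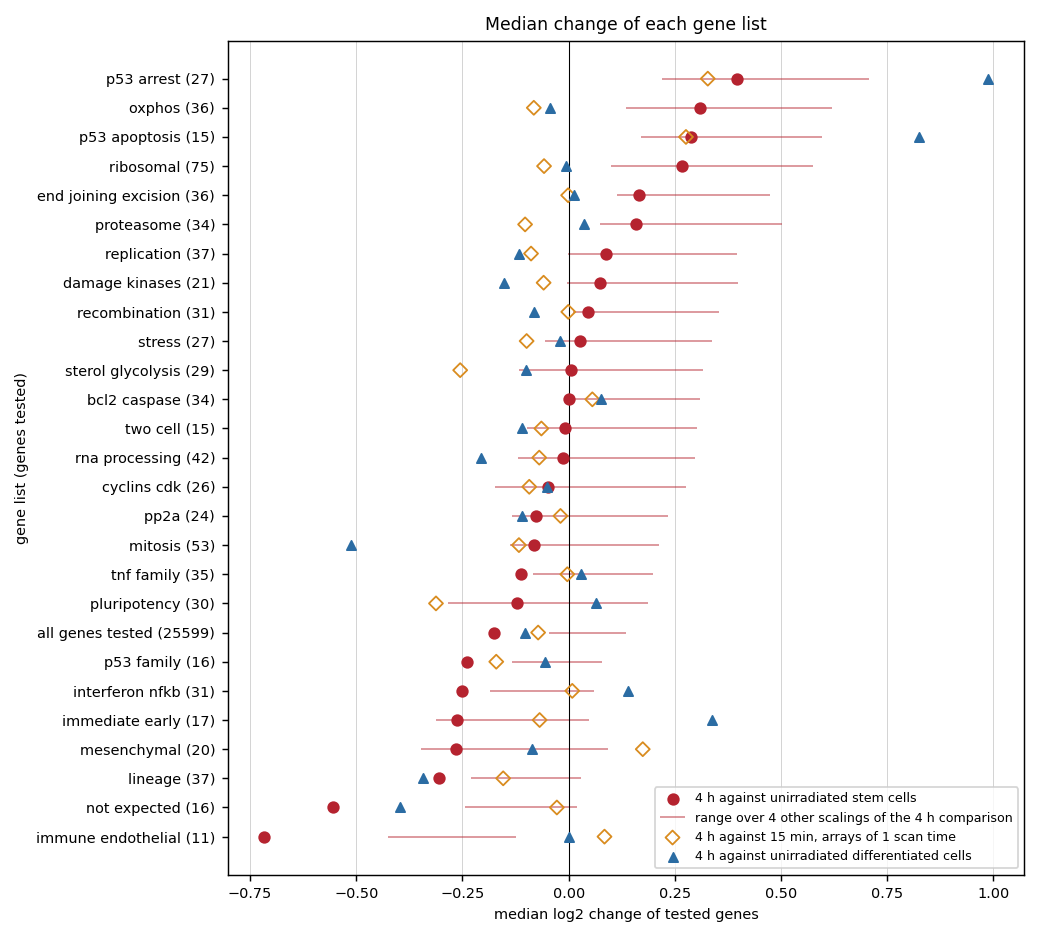
Median log2 change of each gene list, with the number of genes tested in brackets, for stem cells at 4 h against ES (circles), 4 h against 15 min at the shared scan time (diamonds) and differentiated cells at 4 h against ED (triangles), with lines for the range of the first over 4 other scalings. The p53 target lists lie at 0.40 and 0.29 in stem cells and at 0.99 and 0.82 in differentiated cells, while the ribosomal and oxidative phosphorylation lists have diamonds near 0.

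The 4 h change was then compared between stem and differentiated cells with a limma interaction term, which asks whether the radiation response depended on the state of the cells. Of 26015 genes tested, 301 (1.16%) differed by more than 2-fold between the cell types. Among p53 targets Rprm changed by 1.06 in stem cells and 3.55 in differentiated cells, a difference of -2.49 (adjusted p = 0.0027). The brighter probe of Fas differed by -1.96 (adjusted p = 0.0084), from 0.71 and 2.68. Perp, a desmosomal p53 target in apoptosis, differed by -1.62 (adjusted p = 0.0034), from 0.50 and 2.12, and Gdf15 by -1.28 (adjusted p = 0.0082), from 0.84 and 2.12. All 4 were therefore less raised in stem cells. The starting levels of Rprm and Fas differed between the cell types. Rprm was at -5.49, -5.69 and -5.79 in ED and at -2.09, -2.09 and -2.14 in EDRL, below all its ES values. Fas on its brighter probe was at -0.68, -0.46 and 0.10 in ED, above its ES values of -1.35, -1.37 and -1.01. For Btg2, at -0.37 and 2.18, the difference missed the threshold (adjusted p = 0.0683), as it did for Cdkn1a on its second probe, at -0.73 and 0.57 (adjusted p = 0.17). Trp73 changed by 2.12 in stem and 1.80 in differentiated cells, with a difference of 0.32 (adjusted p = 0.7375). Its levels on this probe were far lower in differentiated cells, at -7.56, -7.98 and -7.87 in ED and -6.01, -6.28 and -5.73 in EDRL. Rnaseh2c and Dna2 differed the other way, by 1.60 (adjusted p = 0.0138) and 1.47 (adjusted p = 0.0464), since they were at -0.19 and -0.44 in differentiated cells. Among immediate early genes, Fos was at -0.26 in stem and 1.55 in differentiated cells, a difference of -1.82 (adjusted p = 0.0274), and Zfp36, which promotes decay of mRNAs, at -0.80 and 0.34, a difference of -1.14 (adjusted p = 0.0345). Of the 53 mitotic genes, whose median was -0.08 in stem and -0.51 in differentiated cells, Cenpf, Kif4 and Kif22, of the kinetochore and chromosome motors, differed by 1.70 (adjusted p = 0.0410), 1.12 (adjusted p = 0.0383) and 1.05 (adjusted p = 0.0487). They were at -0.10, 0.57 and 0.12 in stem cells and at -1.79, -0.55 and -0.93 in differentiated cells. The angiopoietin receptor gene Tek differed by -2.23 (adjusted p = 0.0031), from 0.35 and 2.58. The ED and EDRL arrays were also scanned at different times, so here too scan time cannot be told apart from irradiation.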

How the data were processed

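RNA was labelled with Cy3 and hybridised to 18 single-colour Agilent arrays, 3 in each of 6 groups. The authors deposited one scanner table per array, made with Agilent Feature Extraction (9.1 per the processing notes in the labels, 10.7.3.1 per the file headers). Its processed signal intensity is background-subtracted and not normalized between arrays, and its deposited quality flags mark outlier spots and spots well above background. A value table on the log2 scale was deposited as well; its columns equal log2 intensity minus a constant per array, and it served as an alternative.

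Control spots were dropped, leaving 37831 of 39448 spots and 37246 probes. Spots flagged as outliers were dropped, spots of a probe were averaged, and log2 intensity was set to the 75th percentile of its array. A probe entered a test when 1 group of the comparison had it well above background on each of its 3 arrays. A limma model (version 3.58.1, R 4.3.3) with 1 mean per group was fitted to all 18 arrays, so that groups shared 1 estimate of the spread, and p-values were adjusted by Benjamini-Hochberg over all probes tested. Calls needed an adjusted p under 0.05 and a change of more than 1 on the log2 scale. Where a gene has several probes, it was counted if any was called, and its brightest probe stood for it in list medians. The number of arrays limits the precision. On simulated data for ESRL against ES with 27966 probes, 64 of 100 probes changed by 2 on the log2 scale were called and 84 of 100 changed by 3, with 8 false calls. The simulated noise was independent between arrays, with no effect of scan time or array position. The 8 false calls therefore do not measure false calls in the real data.

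Probe names came from the array design, updated through RefSeq accessions for 22216 probes. Scan times (6 in all) were read from the file headers and treated as batches. Named genes were the 12 largest rises and falls of mRNAs and the 3 largest of other transcripts (called, above background on all 6 arrays, groups not overlapping), the called members of 26 gene lists (at most the 8 largest on a list) and a set of p53, pluripotency, mitotic and phosphatase genes whatever their values. The comparison, lists and genes were chosen with earlier results of these data known. Alternatives were other scalings, normexp background correction (on the median signal, since the tables used here give no mean signal), filters, sample sets, blocks, array weights, the methods' t-test and leaving out each array in turn. The alternatives by array position and with a signal floor were chosen after seeing the data. Some members of the lists are not reported here.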

Additional observations from a re-analysis of the deposited data

Results flagged for a closer look

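The values below were picked out because the 4 h change in stem cells differed from that in differentiated cells by limma's interaction term. They are the stem cell change minus the differentiated cell change on the log2 scale. More positive in stem cells were the transcript NM_001111280 (2.55), Art4 (2.06), Rnaseh2c (1.60) and Dna2 (1.47). More negative were B4galt1 (-4.20), uc.174+ (-3.48), AK154344 (-3.44), Rhox11 (-3.15), Rprm (-2.49), Olfr1257 (-2.23) and Fas on its brighter probe (-1.96). Rhox11 rests on 1 ES and 1 ESRL array and uc.174+ on 1 ES array, so for these arms the lone sample was assumed to vary like the other groups. B4galt1 and AK154344 rest on 2 ESRL arrays. With scan time as a random block 1 gene in all was called for this difference, and the part of scan time in these values was not tested.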

How the results depend on the processing

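For ESRL against ES, 177 genes were called higher and 1766 lower. The counts higher and lower were 551 and 1032 with arrays set to the median, 326 and 627 with quantile normalization, 423 and 561 with cyclic loess, 29 and 48 with normexp, and 450 and 828 with the deposited matrix. They were 89 and 314 with only the groups compared in the fit, 3 and 46 with scan time as a random block (correlation 0.65), 409 and 3580 with array weights, 7 and 7 for the methods' t-test with p-values adjusted by Benjamini-Hochberg, and 412 and 4323 for more than 2-fold without a test. With no fold limit 453 were higher. Requiring signal above background on both sides left 382 lower, only stem cell arrays 860, and the signal floor 707. With the test run anew on only the probes outside the upper left area the counts were 28 and 19. Without ESRL replicate 1 in addition they were 45 and 9, and with quantile normalization in addition 77 and 22. Leaving out 1 array gave 91 to 293 higher and 733 to 3782 lower. The most lower calls came without ESRL replicate 2 (3782), and fewer than the full fit without ES replicate 1 (844), ES replicate 2 (733), ES replicate 3 (854) and ESRL replicate 1 (1074). Of the genes called higher, all 177 were shared with median scaling, 145 with quantile normalization, 163 with loess and 25 with normexp, and of those called lower 1032, 624, 553 and 46.

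At the shared scan time 75 were called higher and 246 lower. The higher counts were 122 (median), 143 (quantile), 128 (loess), 0 (normexp), 32 (above background on both sides), 0 (only the groups compared), 144 (only stem cell arrays), 271 (array weights), 0 and 239 (methods' t-test with and without adjustment), 625 (2-fold without a test), 2 (outside the area) and 141 (floor). The lower counts that moved were 155 (quantile), 2 (normexp), 66 (above background on both sides), 0 (only the groups compared), 1544 (array weights), 0 (adjusted t-test), 1917 (2-fold without a test), 1 (outside the area) and 148 (floor). At an unadjusted p under 0.05, limma passed 2558 probes with only the groups compared and the t-test 2222. Leaving out 1 array gave 25 to 175 higher and 126 to 882 lower.

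For the difference between stem and differentiated cells 301 genes were called. The count was 18 with normexp, 166 with the deposited matrix, 784 with only the groups compared, 1 with scan time as a random block, 3573 with array weights, 5502 for more than 2-fold without a test, 80 outside the area, and 128 to 1387 with 1 array left out.

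Same-numbered ES and ESRL arrays deviated together with correlations of 0.08, 0.05 and -0.02, so the replicate numbers gave no sign of pairing. Such low correlations cannot exclude pairing, since the ESRL arrays also differed among themselves in brightness. With the number as a replicate block the counts were 159 higher and 1631 lower for ESRL against ES, 34 and 154 at the shared scan time, and 180 for the difference between cell types.

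No named gene that was called turned its direction under the alternatives run. With scan time as a random block 52 of the named probes no longer passed, and with normexp 42. The cause of these moves was not tested. Faint signals limit the falls, since 321 of the 1772 probes called lower were above background on no ESRL array.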
